A study of Mus musculus with 36 samples.

Results

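The genes Wt1, Gata4, Lhx9, Nr5a1, Nr0b1, Emx2, Cbx2, Zfpm2 and Dmrt1 encode regulators of transcription that act in the bipotential gonad, the paired ridge from which either a testis or an ovary forms. They were taken by symbol and are 9 of the 19938 genes measured in cells sorted from fetal mouse gonads. Each was read by 1 probe set that carries a single gene symbol. Their levels were followed over 12 groups of arrays, defined by cell type, karyotype and days post coitum (dpc).

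Germ cells, which give rise to sperm and eggs, were sorted from XY and XX gonads at 3 stages, 11.5 dpc, 12.5 dpc and 13.5 dpc, through an Oct4 reporter, in C57BL/6NJ progeny of mixed background. Supporting cells are the somatic lineage that forms Sertoli cells in a testis and granulosa cells in an ovary. XY supporting cells carried Tg(Sry-EGFP)92Ei, in CD-1 progeny, at 11.5 dpc and Tg(Sox9-cre/ERT2)1Msan/J, in C57BL/6 progeny, at 12.5 and 13.5 dpc. XX supporting cells carried Tg(Sry-EGFP)92Ei, in CD-1 progeny, at all 3 stages. Gonads were pooled by sex before trypsin treatment, DAPI staining and sorting, and the RNA of each sample was read on an Affymetrix Mouse Gene ST array, with 3 arrays for each group. At 11.5 dpc the XY and XX supporting cells were thus of the same line. At 12.5 and 13.5 dpc karyotype cannot be told apart from reporter line and strain, and the same holds for any change in XY supporting cells after 11.5 dpc, whereas 12.5 and 13.5 dpc XY supporting cells shared a line. Germ and supporting cells differed in line throughout. Whether replicate arrays stand for separate pools of gonads is not stated in the labels, and the p-values then cover only array-to-array spread, which may be technical.

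All levels below are deposited log2 expression values, on which a difference of 1 is a 2-fold change. A difference is given with its standard error (SE) and an adjusted p-value from limma, a linear model fitted over all 19938 genes, and passed at an adjusted p under 0.05. The third array of XX germ cells at 12.5 dpc was left out. The median of its 8 germ cell markers was 5.90, against 10.00 to 10.84 on the other 17 germ cell arrays and 5.38 to 6.49 on the 18 supporting cell arrays. The 17 and 18 arrays kept did not overlap in this measure. The choice to leave it out was made with its marker levels known, and calls that differ when it is kept, in a fit on all 36 arrays, are given beside the results. Within each array the table rows fell into 2 or 3 interleaved sets, each on its own linear scale, whose medians lay 0.0157 to 0.751 apart on the log2 scale. Values after these row sets were brought to one scale are called aligned values and are given where they change a call. In these sorted bulk samples, fewer cells of a type and less RNA per cell cannot be told apart.

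The bipotential gonad arises as a thickening of the coelomic epithelium beside the mesonephros. WT1, GATA4, LHX9, EMX2 and NR5A1 are needed in the mouse for this ridge to form or survive, and they set the stage on which SRY acts in XY supporting cells. SRY raises SOX9, and SOX9 with NR5A1, GATA4 and WT1 then drives Sertoli genes such as Amh, while WNT4 and FOXL2 mark the ovarian course.

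Of the 9 genes, 7 were lower and 2 were higher in germ cells than in supporting cells when karyotypes and stages were averaged, in a comparison in which 47.2% of all genes passed. The median difference of the 9 genes was -2.27 on the log2 scale, against 0.07 over all genes. Wt1, Gata4, Zfpm2, Nr5a1 and Nr0b1 were lower in germ cells at all 3 stages and in both karyotypes, Lhx9 and Emx2 were lower in XX germ cells at all 3 stages and in XY germ cells at 11.5 dpc, and Cbx2 and Dmrt1 differed by 0.29 each.

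Wt1 encodes a zinc finger protein required for the gonad and the kidney. Its level on the 17 germ cell arrays ran from 7.18 to 8.18 with a median of 7.56, and on the 18 supporting cell arrays from 10.75 to 11.68 with a median of 11.39. The arrays of the 2 cell types did not overlap, and the mean difference was -3.76 ± 0.09 (SE; adjusted p = 1.78e-37), which is 13.5-fold lower in germ cells. In single groups the difference ran from -3.42 in XY cells at 13.5 dpc to -3.96 in XX cells at 11.5 dpc.

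Gata4 encodes a zinc finger protein that binds GATA motifs and is needed for the ridge to thicken. Germ cell arrays lay at 6.76 to 7.82 with a median of 7.22, and supporting cell arrays at 9.67 to 10.54 with a median of 10.21. These did not overlap either, with a difference of -2.92 ± 0.09 (SE; adjusted p = 2.06e-33). Zfpm2, also called FOG2, encodes a cofactor that binds GATA4 and is needed for testis determination in the mouse. Its germ cell arrays lay at 5.50 to 6.71 with a median of 6.38, and its supporting cell arrays at 7.34 to 9.31 with a median of 8.36. The difference was -2.03 ± 0.10 (SE; adjusted p = 4.00e-24), again without overlap. On all 36 arrays the Zfpm2 difference in XX cells at 12.5 dpc was -0.72 and did not pass (adjusted p = 0.156).

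Nr5a1, or steroidogenic factor 1, is a nuclear receptor that switches on the genes of steroid synthesis. It ran from 6.42 to 7.75 with a median of 6.82 in germ cells, and from 7.93 to 10.00 with a median of 8.60 in supporting cells. The ranges did not overlap, and the difference was -1.87 ± 0.09 (SE; adjusted p = 2.21e-24). Nr0b1, or DAX1, is an X-linked receptor without a DNA-binding domain of the usual kind that represses NR5A1 activity. It ran from 5.28 to 7.88 with a median of 6.21 in germ cells, and from 7.42 to 9.91 with a median of 8.99 in supporting cells. Here the ranges overlapped: the lowest supporting cell array, an XY one at 13.5 dpc, lay below the highest germ cell arrays, which were of 11.5 dpc. The difference was -2.53 ± 0.13 (SE; adjusted p = 8.06e-24).

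**Figure D1:**
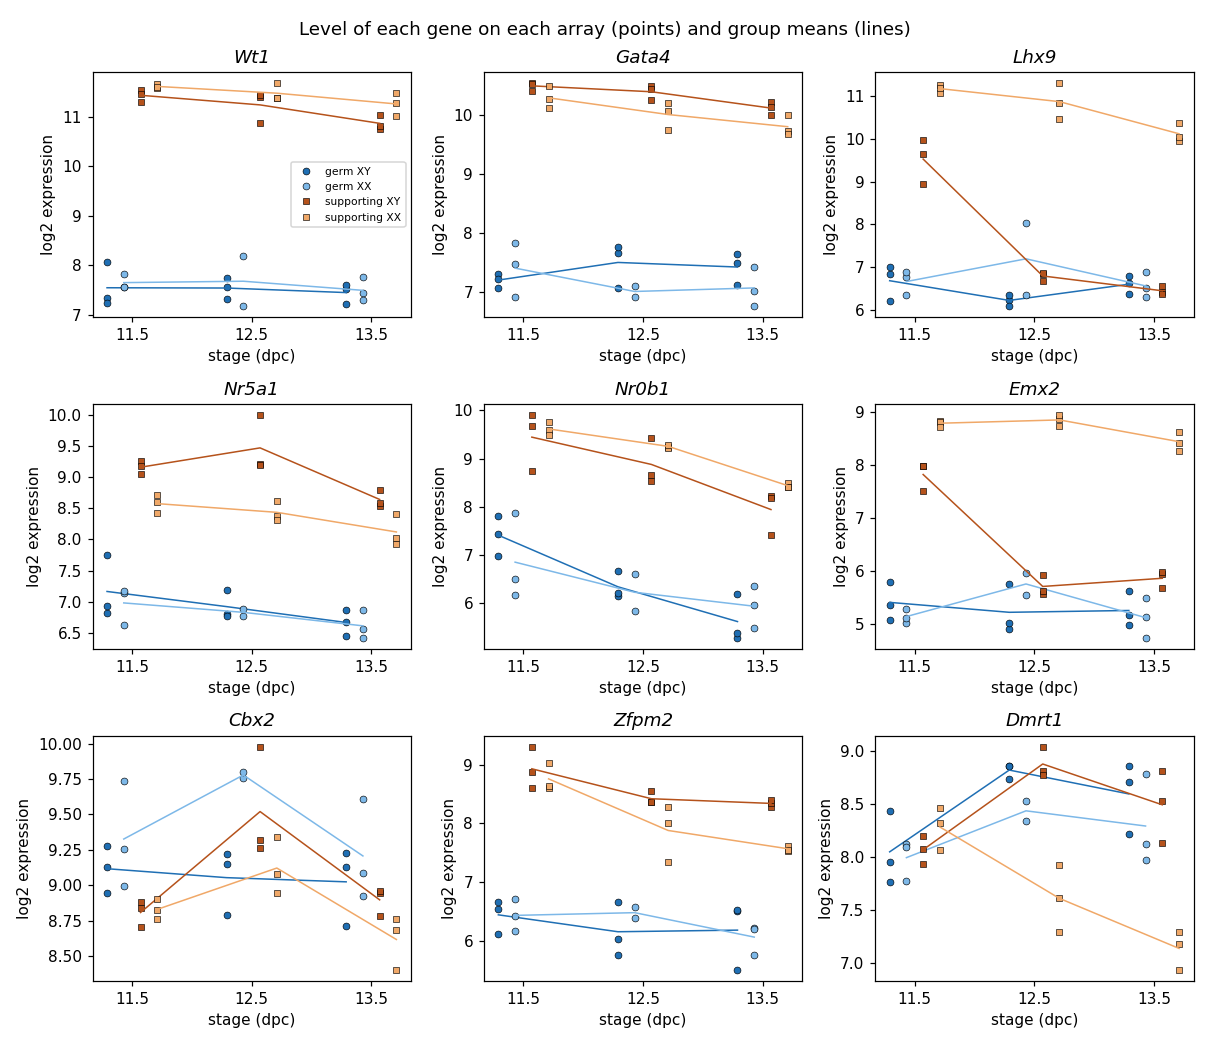
Level of each gene on each array (points, log2 expression as deposited) against stage in dpc, with lines through the group means; circles are germ cells and squares supporting cells, and each panel has its own scale. Supporting cells lie above germ cells in the panels of Wt1, Gata4, Nr5a1 and Zfpm2, and the groups mix in that of Cbx2. XY supporting cells drop to the germ cell level by 13.5 dpc in the panel of Lhx9. In that of Emx2 they drop close to it, with all XY germ cell arrays still lower at 13.5 dpc.

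Lhx9 and Emx2 encode homeodomain proteins without which the mouse gonad regresses or fails to form. In XX cells both genes stood far lower in germ cells at each stage. Lhx9 differed there by -4.51 ± 0.26, -3.68 ± 0.29 and -3.56 ± 0.26 (SE) at the 3 stages in order, and Emx2 by -3.66 ± 0.21, -3.10 ± 0.24 and -3.33 ± 0.21, with adjusted p of 4.82e-15 or less. In XY cells the same gap was present at 11.5 dpc, at -2.85 ± 0.26 for Lhx9 (adjusted p = 5.22e-13) and -2.42 ± 0.21 for Emx2 (adjusted p = 2.08e-13). At 12.5 dpc Lhx9 stood at 6.23, 6.09 and 6.34 in XY germ cells and at 6.83, 6.87 and 6.68 in XY supporting cells, a difference of -0.57 ± 0.26 that did not pass (adjusted p = 0.0989). At 13.5 dpc Lhx9 stood at 6.64, 6.79 and 6.38 in XY germ cells and at 6.42, 6.36 and 6.56 in XY supporting cells, and the arrays overlapped (0.15 ± 0.26, adjusted p = 0.735). By then XY supporting cells held Lhx9 at a level that could not be distinguished from that of germ cells.

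Emx2 stood at 5.74, 4.89 and 5.0 in XY germ cells and at 5.92, 5.56 and 5.62 in XY supporting cells at 12.5 dpc. These arrays overlapped, and the difference of -0.49 ± 0.21 did not pass (adjusted p = 0.0855), although it passed on aligned values (-0.63, adjusted p = 0.00108) and with quantile normalization (-0.52, adjusted p = 0.0362). At 13.5 dpc Emx2 stood at 4.97, 5.61 and 5.16 in XY germ cells and at 5.93, 5.67 and 5.97 in XY supporting cells. At both stages all these values lay below the array medians of 6.54 to 7.01, and how near background they were was not tested. All germ cell arrays were lower, and the difference of -0.61 ± 0.21 passed (adjusted p = 0.0289). That call was lost when any 1 of 4 arrays was left out, XY germ replicates 1 and 3 and XY supporting replicates 1 and 3, with adjusted p of 0.0942 to 0.126, and on all 36 arrays (adjusted p = 0.260).

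Cbx2 encodes a chromodomain subunit of polycomb repressive complex 1 (PRC1), and its loss turns XY mice female. It was 0.29 ± 0.09 (SE) higher in germ cells on average (adjusted p = 0.00418), a 1.22-fold difference. With quantile normalization the difference was 0.088 and did not pass (adjusted p = 0.344). Cbx2 ran from 8.71 to 9.80 with a median of 9.15 in germ cells and from 8.40 to 9.98 with a median of 8.89 in supporting cells, so the cell types overlapped almost fully. Between germ and supporting cells of the same karyotype and stage it passed in XX cells at 12.5 dpc (0.66 ± 0.23, adjusted p = 0.0274) and 13.5 dpc (0.59 ± 0.20, adjusted p = 0.0249). At 12.5 dpc it stood at 9.76 and 9.80 in XX germ cells and at 8.95, 9.34 and 9.08 in XX supporting cells. Aligned values gave 0.23 there (adjusted p = 0.0846), and the call was lost without XX germ replicate 1 or 2 or XX supporting replicate 1 or 3 (adjusted p from 0.0648 to 0.131), with quantile normalization (0.43, adjusted p = 0.0948) and on the arrays compared alone (adjusted p = 0.0684). The call at 13.5 dpc was lost without XX germ replicate 1 (0.39, adjusted p = 0.215) or XX supporting replicate 2 (0.48, adjusted p = 0.141). At 11.5 dpc the XX difference was 0.50 ± 0.20 on deposited values (adjusted p = 0.0681) and passed on aligned values at 0.36 (adjusted p = 0.00184) and with centred arrays at 0.47 (adjusted p = 0.0360). In XY cells Cbx2 did not pass at any stage, and the sign was not the same throughout, at 0.31 ± 0.20, -0.47 ± 0.20 and 0.13 ± 0.20 (SE) at the 3 stages in order (adjusted p = 0.314, 0.0852 and 0.719). The XY difference at 12.5 dpc passed as lower in germ cells with quantile normalization (-0.51, adjusted p = 0.0212).

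Dmrt1 encodes a DM domain protein that acts in both lineages of the mouse, where it keeps Sertoli cells from turning into granulosa cells and controls meiosis in germ cells. Averaged over groups, Dmrt1 was 0.29 ± 0.09 (SE) higher in germ cells (adjusted p = 0.00566), and 0.22 on all 36 arrays (adjusted p = 0.0867). In XX cells at 13.5 dpc it stood at 8.78, 8.12 and 7.97 in germ cells and at 7.19, 6.94 and 7.30 in supporting cells, all germ cell arrays being higher (1.15 ± 0.21, adjusted p = 1.71e-05). In XY cells at 13.5 dpc it stood at 8.22, 8.86 and 8.71 in germ cells and at 8.53, 8.14 and 8.81 in supporting cells, which overlapped (0.10 ± 0.21, adjusted p = 0.783). At 12.5 dpc the difference was 0.82 ± 0.24 in XX cells (adjusted p = 0.00611) and -0.06 ± 0.21 in XY cells (adjusted p = 0.882). The XX call at 12.5 dpc was lost without XX germ replicate 2 (adjusted p = 0.0845) or XX supporting replicate 3 (adjusted p = 0.0540), and on all 36 arrays (0.42, adjusted p = 0.300). For XY cells at 12.5 dpc aligned values gave -0.49 (adjusted p = 0.00257), and for XX cells at 11.5 dpc they gave -0.37 (adjusted p = 0.0209), where deposited values gave -0.29 (adjusted p = 0.421) and quantile normalization -0.49 (adjusted p = 0.0375).

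**Figure D2:**
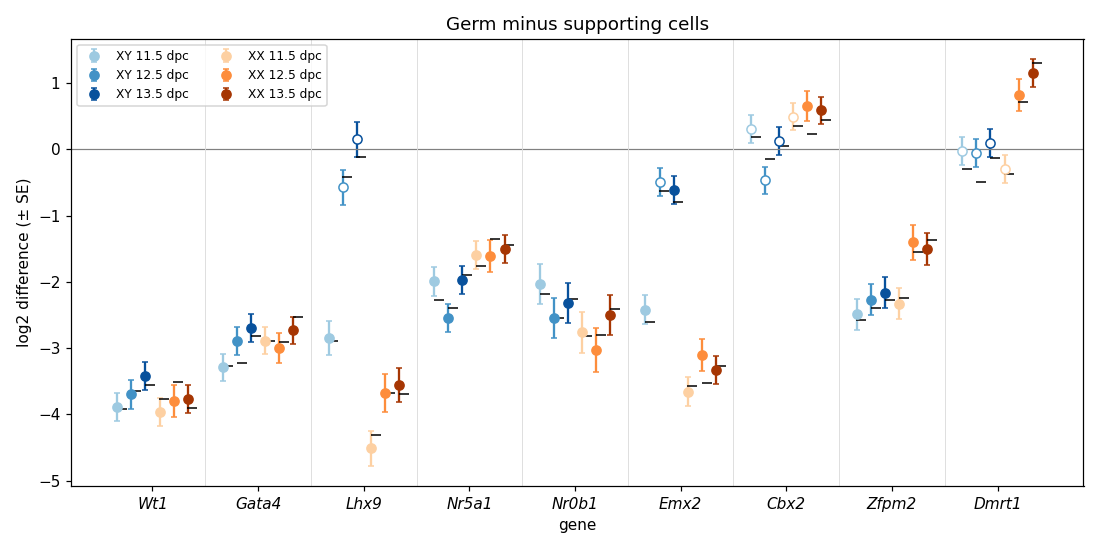
Germ minus supporting cells in log2 units for each gene, with XY and XX cells at the 3 stages; circles are the differences with their SE, filled where the adjusted p was under 0.05, and black dashes are the aligned values. Wt1, Gata4, Nr5a1, Nr0b1 and Zfpm2 lie below 0 in all 6 comparisons, while Lhx9 in XY cells moves from -2.85 at 11.5 dpc to 0.15 at 13.5 dpc.

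Within each pair of germ and supporting groups, the number of the 9 genes that were lower in germ cells was 7 in XX cells at each stage. It was 7, 5 and 6 in XY cells at the 3 stages in order. No gene was higher in XY germ cells at any stage or in XX germ cells at 11.5 dpc, while Cbx2 and Dmrt1 were higher in XX germ cells at 12.5 and 13.5 dpc. Over all genes 26.6%, 24.6% and 26.4% passed in XX cells and 28.2%, 28.0% and 25.1% in XY cells at the 3 stages. On aligned values the number lower in germ cells was 8, 7 and 7 in XX cells and 7, 7 and 6 in XY cells, while 38.5%, 33.8% and 37.8% of all genes passed in XX cells and 38.1%, 39.5% and 38.4% in XY cells. Averaged over groups, 7 were lower and 2 higher on aligned values too, where 60.3% of all genes passed.

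Among supporting cells, Lhx9 and Emx2 had the largest XY minus XX differences of the 9 genes at each stage, and Nr0b1 fell with stage in XY and XX supporting cells and in XY germ cells. The windows around the annotated start sites of these 3 genes are shown because, of the 9 genes, only they had a window in the reference used. The windows run from 250 bases before the start to 50 after it in RefSeq (GRCm38.p6), and those of 3 of the 9 genes were matched by symbol. Wt1, Gata4, Nr5a1, Cbx2, Zfpm2 and Dmrt1 are named only. Capitals mark matches, on either strand, to 4 short motifs. The homeodomain core was searched as TAATTA. The core that GATA proteins bind was searched as GATAA. The half-site of nuclear receptors was searched as AGGTCA. The TATA box was searched as TATAAA. The window of Lhx9 lies on the minus strand at chr1:138842395-138842694. The start site it surrounds lies inside the gene, 6395 bases from the annotated gene start. That of Emx2 lies on the plus strand at chr19:59458440-59458739 and that of Nr0b1 on the plus strand at chrX:86191525-86191824.
Lhx9: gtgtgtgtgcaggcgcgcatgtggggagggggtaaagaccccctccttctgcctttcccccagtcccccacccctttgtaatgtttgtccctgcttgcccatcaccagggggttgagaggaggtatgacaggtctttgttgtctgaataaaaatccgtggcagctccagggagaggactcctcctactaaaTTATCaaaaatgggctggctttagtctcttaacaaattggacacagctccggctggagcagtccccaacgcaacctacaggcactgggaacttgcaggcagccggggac
Emx2: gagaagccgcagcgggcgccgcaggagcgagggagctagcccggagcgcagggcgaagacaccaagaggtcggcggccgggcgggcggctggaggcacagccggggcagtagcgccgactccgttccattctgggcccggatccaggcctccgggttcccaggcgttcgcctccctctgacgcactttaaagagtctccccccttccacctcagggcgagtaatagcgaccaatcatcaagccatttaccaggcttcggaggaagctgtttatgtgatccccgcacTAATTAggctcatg
Nr0b1: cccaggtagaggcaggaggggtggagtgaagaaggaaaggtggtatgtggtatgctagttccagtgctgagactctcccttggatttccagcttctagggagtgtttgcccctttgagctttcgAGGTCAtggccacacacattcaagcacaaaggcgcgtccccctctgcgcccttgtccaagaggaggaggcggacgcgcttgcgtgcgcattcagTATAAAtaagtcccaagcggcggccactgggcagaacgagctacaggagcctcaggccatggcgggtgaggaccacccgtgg
In Lhx9 the capitals are the GATA core read on the other strand, in Emx2 they are the homeodomain core, and in Nr0b1 they are the nuclear receptor half-site and then the TATA box. Relative to the start site, the TATA box of Nr0b1 begins at -32 and the homeodomain core of Emx2 at 36. None of these matches overlaps another. Of 32851 such windows, 5.29% hold the homeodomain core, 25.4% the GATA core, 16.3% the half-site and 13.6% the TATA box, so these matches describe the letters and mark no site of action. The share of G and C was 55.3% for Lhx9, 64.3% for Emx2 and 58.7% for Nr0b1, against a median of 52.7% over all windows.

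At 11.5 dpc, when both karyotypes came from the same line, 2 of the 9 genes differed between XY and XX supporting cells and both were lower in XY cells, in a comparison in which 3.33% of all genes passed. Lhx9 stood at 9.98, 9.65 and 8.95 in XY cells and at 11.08, 11.25 and 11.20 in XX cells. Every XY array was lower, and the spread within XY cells was wide, at 0.53 (SD) against 0.09 in XX cells (n = 3 each). The difference was -1.65 ± 0.26 (SE; adjusted p = 1.30e-05), or 3.14-fold lower in XY cells. Emx2 stood at 7.98, 7.97 and 7.50 in XY cells and at 8.83, 8.81 and 8.73 in XX cells. Every XY array was again lower, and the array lowest for Lhx9 was also the lowest for Emx2. The difference was -0.97 ± 0.21 (SE; adjusted p = 0.00258), and without XY replicate 3 it was -0.81 with an adjusted p of 0.0508. On all 36 arrays neither gene passed at this stage, with the same differences and adjusted p of 0.112 for Lhx9 and 0.252 for Emx2. The array added there, of XX germ cells, is in neither group compared. It enters only through the spread, which the fit shares over all groups, and the adjustment over genes. In a fit on the 6 arrays compared alone Lhx9 (adjusted p = 0.0201) and Emx2 (adjusted p = 0.0182) both passed, and so did Nr5a1, which was higher in XY cells (0.58, adjusted p = 0.0357).

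Both genes were again lower in XY cells at 12.5 dpc. Lhx9 stood at 6.83, 6.87 and 6.68 in XY supporting cells and at 11.31, 10.84 and 10.47 in XX supporting cells, a difference of -4.08 ± 0.26 (SE; adjusted p = 4.95e-18) or 16.9-fold. Emx2 stood at 5.92, 5.56 and 5.62 in XY cells and at 8.88, 8.73 and 8.95 in XX cells, a difference of -3.15 ± 0.21 (SE; adjusted p = 4.94e-17) or 8.88-fold. At 13.5 dpc the XY arrays were still far below the XX arrays. Lhx9 stood at 6.42, 6.36 and 6.56 in XY cells and at 9.95, 10.03 and 10.37 in XX cells (-3.67 ± 0.26, adjusted p = 1.96e-16). Emx2 stood at 5.93, 5.67 and 5.97 in XY cells and at 8.42, 8.27 and 8.63 in XX cells (-2.58 ± 0.21, adjusted p = 4.43e-14). The XY minus XX difference itself changed between 11.5 and 13.5 dpc, by -2.02 ± 0.37 for Lhx9 (adjusted p = 0.000125) and -1.61 ± 0.30 for Emx2 (adjusted p = 0.000211). With Dmrt1, described next, 3 of the 9 genes passed this test of the change, as did 4.26% of all genes. The same 3 passed on aligned values, with 11.7% of all genes. On all 36 arrays Lhx9 (adjusted p = 0.185) and Emx2 (adjusted p = 0.0871) did not pass it.

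Of the 9 genes, 2 were higher and 2 lower in XY than in XX supporting cells at 12.5 dpc and again at 13.5 dpc, where 13.4% and 12.2% of all genes passed. Dmrt1 was the gene whose XY minus XX difference changed in the other direction. At 11.5 dpc it stood at 8.08, 8.20 and 7.94 in XY cells and at 8.32, 8.07 and 8.46 in XX cells, which overlapped (-0.21 ± 0.21, adjusted p = 1.00). At 12.5 dpc it stood at 8.81, 8.78 and 9.04 in XY cells and at 7.61, 7.93 and 7.29 in XX cells, every XY array being higher (1.26 ± 0.21, adjusted p = 7.11e-06). At 13.5 dpc it stood at 8.53, 8.14 and 8.81 in XY cells and at 7.19, 6.94 and 7.30 in XX cells, again without overlap (1.35 ± 0.21, adjusted p = 2.05e-06). The difference was 2.40-fold and 2.55-fold at these 2 stages, and its change between 11.5 and 13.5 dpc was 1.56 ± 0.30 (adjusted p = 0.000269).

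Nr5a1 was higher in XY supporting cells at 12.5 dpc, at 10.00, 9.21 and 9.19 in XY cells and at 8.38, 8.61 and 8.31 in XX cells (1.03 ± 0.22, adjusted p = 0.000300), or 2.05-fold. Every XY array was higher at 11.5 dpc too, at 9.25, 9.17 and 9.05 in XY cells and at 8.59, 8.42 and 8.70 in XX cells. That difference of 0.58 ± 0.22 did not pass (adjusted p = 0.180), but aligned values gave 0.69 with an adjusted p of 0.000211, in a fit in which 8.63% of all genes passed. It also passed with centred arrays (0.64, adjusted p = 0.0384), with quantile normalization (0.67, adjusted p = 0.0188) and on the arrays compared alone. At 13.5 dpc it stood at 8.54, 8.58 and 8.80 in XY cells and at 8.41, 8.02 and 7.93 in XX cells. The difference of 0.52 ± 0.22 did not pass (adjusted p = 0.124) on deposited values and was 0.44 on aligned values (adjusted p = 0.00630), where 25.7% of all genes passed. On the arrays compared alone it passed as well (adjusted p = 0.0239). Nr5a1 is also a gene of steroid-producing cells. The median of 4 measured steroidogenic markers was 6.98 to 7.59 in XY supporting cells at 13.5 dpc and at most 6.13 in the other groups kept, and the part of such cells in the result was not tested.

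Zfpm2 was higher in XY supporting cells at 13.5 dpc, at 8.28, 8.35 and 8.39 in XY cells and at 7.62, 7.53 and 7.55 in XX cells (0.77 ± 0.24, adjusted p = 0.0207), or 1.71-fold. The arrays of each group lay close together and did not overlap, but the call was lost without XX replicate 2 or 3 or XY replicate 2 or 3 (adjusted p from 0.0616 to 0.0733), where the difference was 0.75 to 0.77, and on all 36 arrays (adjusted p = 0.184). At 12.5 dpc Zfpm2 stood at 8.54, 8.36 and 8.36 in XY cells and at 8.01, 8.28 and 7.34 in XX cells (0.54 ± 0.24, adjusted p = 0.146), and aligned values gave 0.66 (adjusted p = 0.0116). At 11.5 dpc its XY minus XX difference was 0.17 ± 0.24 (adjusted p = 1.00).

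Wt1, Gata4, Nr0b1 and Cbx2 did not pass between XY and XX supporting cells at any stage. The differences of Wt1 were -0.18, -0.24 and -0.39 at the 3 stages in order, those of Nr0b1 -0.17, -0.38 and -0.50, those of Cbx2 -0.02, 0.40 and 0.28, and those of Gata4 0.20, 0.39 and 0.32. With SEs of 0.20 to 0.30, shifts of this size could not be resolved. The Gata4 difference at 12.5 dpc passed on aligned values, at 0.53 (adjusted p = 0.00628), in a fit in which 27.7% of all genes passed.

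Markers of the 2 supporting fates differed in the same comparisons, though not all of them. Over all genes 3.33%, 13.4% and 12.2% passed in these comparisons at the 3 stages in order. Of 5 Sertoli cell markers 3, 5 and 5 were higher in XY supporting cells at the 3 stages in order and none was lower. Sox9 is among the 5, and XY cells of 12.5 and 13.5 dpc came from the Sox9 line. Its calls at those stages cannot be told apart from the choice of line. Of 6 pregranulosa markers 5 were lower in XY cells at each stage and none was higher. Amh did not pass at 11.5 dpc, with means of 6.09 in XY and 5.90 in XX cells. Foxl2 did not pass at any stage, with means of 6.15, 6.61 and 6.22 in XY cells and 6.21, 6.36 and 6.29 in XX cells. Its means in germ cells were alike, at 5.97 to 6.42, and array medians were 6.54 to 7.01. Whether its probe set read above background in any group was not tested, so its values do not show equal levels in XY and XX cells. The median of 5 Sertoli cell markers was 7.99 to 8.92, 10.12 to 10.19 and 9.66 to 9.98 in XY supporting cells at the 3 stages in order, and 6.61 to 7.04 in XX supporting cells. The median of 6 pregranulosa markers was 7.54 to 7.73, 6.59 to 7.05 and 6.45 to 6.59 in XY supporting cells at these stages, and 9.27 to 10.24 in XX supporting cells. Of 4 measured stromal markers, Pdgfra was higher in XY cells at 11.5 dpc (1.80) and 12.5 dpc (0.80) and Nr2f2 lower (-1.13 and -1.54), and none passed at 13.5 dpc. The part of these markers in the differences was not tested.

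**Figure D3:**
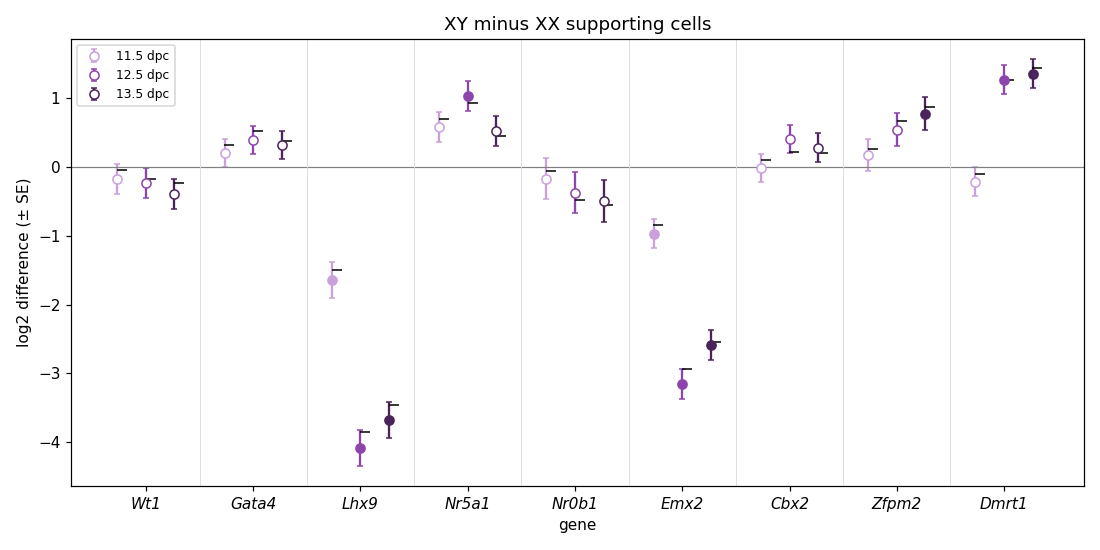
XY minus XX supporting cells in log2 units for each gene at the 3 stages; circles are the differences with their SE, filled where the adjusted p was under 0.05, and black dashes are the aligned values. Lhx9 and Emx2 lie below 0 at all 3 stages, and Dmrt1 lies near 0 at 11.5 dpc and above 1 at 12.5 and 13.5 dpc.

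Between stages of XX supporting cells, all on 1 line, 4 of the 9 genes were lower at 13.5 than at 11.5 dpc and none was higher, where 4.10% of all genes passed. Dmrt1 stood at 7.19, 6.94 and 7.30 at 13.5 dpc and at 8.32, 8.07 and 8.46 at 11.5 dpc (-1.14 ± 0.21, adjusted p = 0.000142). Zfpm2 stood at 7.62, 7.53 and 7.55 at 13.5 dpc and at 8.60, 9.03 and 8.64 at 11.5 dpc (-1.19 ± 0.24, adjusted p = 0.000450). Neither gene's arrays overlapped between these stages. Nr0b1 stood at 8.50, 8.42 and 8.40 at 13.5 dpc and at 9.60, 9.76 and 9.49 at 11.5 dpc (-1.18 ± 0.30, adjusted p = 0.0106), and Lhx9 was lower by a similar amount (-1.06 ± 0.26, adjusted p = 0.00688). The Nr0b1 call was lost without XX replicate 2 of 11.5 dpc (adjusted p = 0.0575) and the Lhx9 call without XX replicate 1 of 13.5 dpc (adjusted p = 0.0509), and both were lost on all 36 arrays, with adjusted p of 0.306 for Nr0b1 and 0.572 for Lhx9. Emx2 differed by -0.35 ± 0.21 (adjusted p = 0.715), and whether its change differed from that of Lhx9 was not tested. The median of 4 measured stromal markers was 6.46 to 6.78 at 13.5 dpc and 7.27 to 7.41 at 11.5 dpc in these cells, and its part in the changes was not tested. Gata4 passed on aligned values only (-0.44, adjusted p = 0.0480), where 10.6% of all genes did.

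Step by step, Zfpm2 in XX supporting cells was lower at 12.5 than at 11.5 dpc (-0.88 ± 0.24, adjusted p = 0.0246), where 2.96% of all genes passed, and was the only one of the 9 to pass. It was lost without 4 single arrays, XX replicates 2 and 3 of 11.5 dpc and 1 and 3 of 12.5 dpc, with adjusted p of 0.0504 to 0.212, on all 36 arrays (adjusted p = 0.300) and on the arrays compared alone (adjusted p = 0.115). Dmrt1 fell short on deposited values (-0.67 ± 0.21, adjusted p = 0.0746) and passed on aligned values (-0.65, adjusted p = 0.00113), where 6.10% of all genes did, and with centred arrays (-0.78, adjusted p = 0.00700) and quantile normalization (-0.91, adjusted p = 0.000998). No gene of the 9 passed between 13.5 and 12.5 dpc in XX supporting cells on deposited or aligned values, where 0.542% and 1.32% of all genes did, but Nr0b1 passed on the arrays compared alone (-0.81, adjusted p = 0.0245).

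In XY supporting cells, 3 of the 9 genes were lower at 13.5 than at 11.5 dpc and none was higher, where 8.87% of all genes passed. The values of Lhx9 and Emx2 are those given above, with changes of -3.08 ± 0.26 (adjusted p = 2.44e-13) and -1.96 ± 0.21 (adjusted p = 7.25e-10). Nr0b1 stood at 7.42, 8.23 and 8.18 at 13.5 dpc and at 9.91, 9.68 and 8.75 at 11.5 dpc, without overlap (-1.5 ± 0.30, adjusted p = 0.000305), and on all 36 arrays its adjusted p was 0.0510. On aligned values 6 genes were lower and 1 was higher, where 21.9% of all genes passed. The added ones were Wt1 (-0.59, adjusted p = 0.00394), Nr5a1 (-0.57, adjusted p = 0.000793), Zfpm2 (-0.57, adjusted p = 0.0378) and Dmrt1, which was higher (0.45, adjusted p = 0.0103). With quantile normalization Wt1 (-0.75, adjusted p = 0.0165), Nr5a1 (-0.79, adjusted p = 0.00212), Zfpm2 (-0.88, adjusted p = 0.00400) and Gata4 (-0.55, adjusted p = 0.0470) passed as lower.

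The fall of Lhx9 and Emx2 in XY supporting cells lay between 11.5 and 12.5 dpc, the step at which the reporter line also changed. There Lhx9 changed by -2.73 ± 0.26 (adjusted p = 1.60e-11) and Emx2 by -2.12 ± 0.21 (adjusted p = 1.02e-10), and 4 of the 9 genes passed, with 14.8% of all genes. Of 4 measured stromal markers 2 were lower at 12.5 dpc in these cells, Pdgfra (means of 7.61 at 12.5 dpc and 9.65 at 11.5 dpc) and Nr2f2 (7.15 and 8.39), and their part in the changes was not tested. Dmrt1 rose by 0.81 ± 0.21 (adjusted p = 0.00537), but with quantile normalization the change was 0.44 and did not pass (adjusted p = 0.129). Cbx2 stood at 9.98, 9.32 and 9.26 at 12.5 dpc and at 8.70, 8.84 and 8.88 at 11.5 dpc (0.71 ± 0.20, adjusted p = 0.0118). The Cbx2 call leaned on the first array of each stage: without XY replicate 1 of 12.5 dpc it was 0.48 (adjusted p = 0.167) and without XY replicate 1 of 11.5 dpc 0.66 (adjusted p = 0.0551). The median of all genes moved by 0.21 in this step on deposited values, and aligned values gave 0.25 for Cbx2 (adjusted p = 0.0451). The Cbx2 call was lost with centred arrays (0.50, adjusted p = 0.0537) and with quantile normalization (0.31, adjusted p = 0.305). Zfpm2, which did not pass on deposited values, passed as lower in these settings (-0.72, adjusted p = 0.0238 centred, and -0.97, adjusted p = 0.00134 quantile normalized). Wt1 (-0.43, adjusted p = 0.0364) and Nr0b1 (-0.88, adjusted p = 0.0232) also passed on aligned values, where 20.5% of all genes did, and Nr0b1 with quantile normalization too (-1.01, adjusted p = 0.0164).

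Between 13.5 and 12.5 dpc XY supporting cells shared a line, and only Nr5a1 passed (-0.83 ± 0.22, adjusted p = 0.0444), where 0.918% of all genes did. It stood at 8.54, 8.58 and 8.80 at 13.5 dpc and at 10.00, 9.21 and 9.19 at 12.5 dpc, without overlap. Without XY replicate 1 of 12.5 dpc, the array at 10.00, the difference was -0.56 (adjusted p = 0.476), and the call was also lost without any 1 of the 13.5 dpc arrays (adjusted p from 0.0847 to 0.243) and on all 36 arrays (adjusted p = 0.389). The median of all genes moved by -0.17 in this step, and aligned values put Nr5a1 at -0.52 (adjusted p = 0.0178), where 1.64% of all genes passed. The call was lost with centred arrays (-0.66, adjusted p = 0.0921) and with quantile normalization (-0.68, adjusted p = 0.0652). Lhx9 (-0.35 ± 0.26, adjusted p = 0.557) and Emx2 (0.15 ± 0.21, adjusted p = 0.791) did not pass within this line, and Nr0b1 passed on the arrays compared alone (-0.94, adjusted p = 0.0468).

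**Figure D4:**
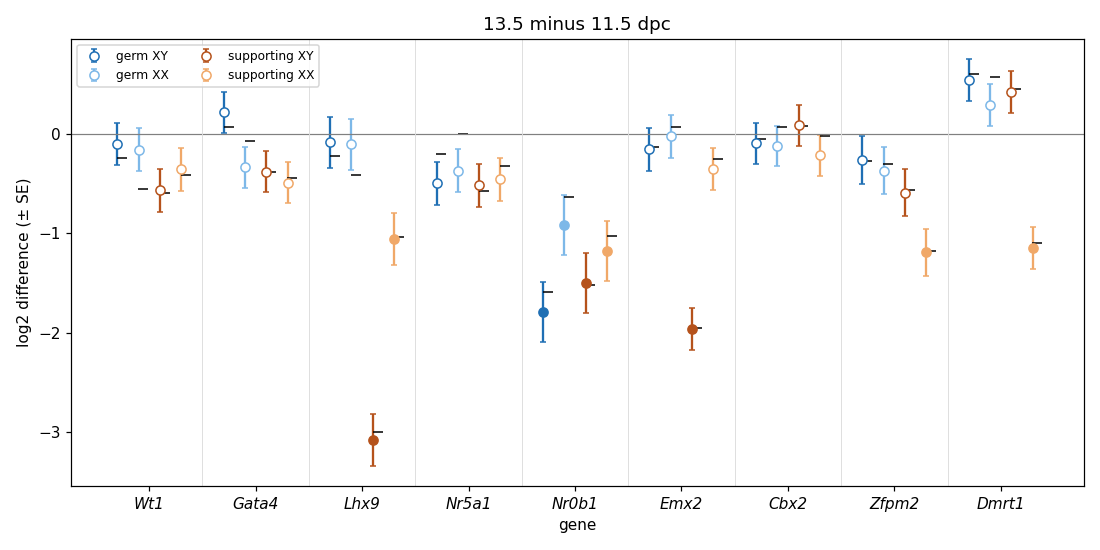
Change between 11.5 and 13.5 dpc (13.5 minus 11.5) in log2 units for each gene in XY and XX germ cells and XY and XX supporting cells; circles are the differences with their SE, filled where the adjusted p was under 0.05, and black dashes are the aligned values. Nr0b1 is below 0 in all 4, Lhx9 and Emx2 reach -3.08 and -1.96 in XY supporting cells, and Dmrt1 is at -1.14 in XX supporting cells.

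In germ cells Nr0b1 was the one gene of the 9 to pass between 13.5 and 11.5 dpc on deposited values. In XY germ cells Nr0b1 stood at 7.43, 6.99 and 7.82 at 11.5 dpc, at 6.14, 6.21 and 6.67 at 12.5 dpc and at 5.28, 5.38 and 6.20 at 13.5 dpc. The 11.5 dpc arrays were all above those of both later stages. The change between 11.5 and 13.5 dpc was -1.79 ± 0.30 (adjusted p = 2.40e-05), or 3.46-fold, and Nr0b1 alone passed, where 7.10% of all genes did. In XX germ cells it stood at 7.88, 6.17 and 6.51 at 11.5 dpc, at 6.61 and 5.85 at 12.5 dpc and at 5.96, 6.37 and 5.49 at 13.5 dpc. These stages overlapped, and the change of -0.91 ± 0.30 (adjusted p = 0.0300), the only one of the 9 to pass where 15.3% of all genes did, leaned on the array at 7.88. Without it the change was -0.40 (adjusted p = 0.451), and aligned values gave -0.63 (adjusted p = 0.118). It was also lost without XX replicate 3 (adjusted p = 0.209) or 1 (adjusted p = 0.0514) of 13.5 dpc, and on all 36 arrays (adjusted p = 0.223). The median of all genes moved by -0.14 between these XX stages.

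Dmrt1 in germ cells did not pass on deposited values. In XY germ cells it stood at 8.22, 8.86 and 8.71 at 13.5 dpc and at 7.77, 7.95 and 8.43 at 11.5 dpc (0.54 ± 0.21, adjusted p = 0.129). The aligned change was 0.61 (adjusted p = 0.000952), and it also passed with centred arrays (0.58, adjusted p = 0.0333) and quantile normalization (0.57, adjusted p = 0.0358). In XX germ cells the change was 0.30 ± 0.21 (adjusted p = 0.335) and on aligned values 0.58 (adjusted p = 0.00109). Aligned values also called Wt1 lower in XX germ cells at 13.5 dpc (-0.55, adjusted p = 0.00683). In those fits 14.1% of all genes passed in XY germ cells and 20.9% in XX germ cells.

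None of the 9 genes passed between XY and XX germ cells at 11.5, 12.5 or 13.5 dpc on the 35 arrays, on deposited or aligned values. With the array left out kept in, Lhx9 (-2.28, adjusted p = 0.00924), Emx2 (-1.38, adjusted p = 0.0225) and Cbx2 (-0.74, adjusted p = 0.0337) passed at 12.5 dpc. Of all genes 0.0251%, 1.80% and 9.21% passed there on deposited values and 1.96% at 12.5 dpc and 17.3% at 13.5 dpc on aligned values, where 20 genes passed at 11.5 dpc. The largest differences were at 12.5 dpc, where XX germ cells had 2 arrays. Lhx9 stood at 6.23, 6.09 and 6.34 in XY germ cells and at 6.35 and 8.04 in XX germ cells (-0.97 ± 0.29, adjusted p = 0.0680), the second XX array standing apart. Cbx2 stood at 9.15, 8.79 and 9.22 in XY germ cells and at 9.76 and 9.80 in XX germ cells (-0.72 ± 0.23, adjusted p = 0.0887). Without any overlap, Cbx2 fell short of the threshold, and its aligned difference was -0.16 (adjusted p = 0.701). It passed with centred arrays (-0.69, adjusted p = 0.0346) and quantile normalization (-0.68, adjusted p = 0.0390), and Lhx9 passed on the arrays compared alone (adjusted p = 0.0169). Nor did any of the 9 pass in germ cells in the test of whether XY minus XX changed between 11.5 and 13.5 dpc, where 3.23% of all genes passed on deposited and 7.66% on aligned values.

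When the 12 groups were ordered by mean level, the 6 supporting cell groups stood above the 6 germ cell groups for Wt1, Gata4, Nr5a1, Nr0b1 and Zfpm2. For Wt1 and Gata4 this was the only place in the order where the arrays of neighbouring groups did not overlap, with means of 10.87 ± 0.15 (SD, n = 3) in XY supporting cells at 13.5 dpc and 7.68 ± 0.71 (SD, n = 2) in XX germ cells at 12.5 dpc on its sides for Wt1. For Nr5a1, XY supporting cells at 12.5 and 11.5 dpc came first and stood clear of the other groups. For Zfpm2, XY and XX supporting cells at 11.5 dpc came first and stood clear of the rest. For Nr0b1, the 4 supporting groups of 11.5 and 12.5 dpc stood clear of XX supporting cells at 13.5 dpc, and XY supporting cells at 13.5 dpc overlapped XY germ cells at 11.5 dpc.

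For Lhx9, XX supporting cells at 11.5 and 12.5 dpc came first (11.18 ± 0.09 and 10.87 ± 0.42, SD, n = 3 each) and stood clear of XX supporting cells at 13.5 dpc and XY supporting cells at 11.5 dpc. The last 2 groups overlapped each other and stood clear of all 8 remaining groups. For Emx2 the order was the 3 XX supporting groups, then XY supporting cells at 11.5 dpc (7.82 ± 0.27), then all others, with means of 5.86 or less. For Cbx2 and Dmrt1 no neighbouring groups were free of overlap, and means ran from 8.62 to 9.78 for Cbx2 and from 7.14 to 8.88 for Dmrt1.

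The genes most like each of the 9 were taken by Pearson's r over the 12 group means and over the 18 supporting cell arrays, as descriptions of points that share arrays and groups. Over the 12 group means, Wt1 was closest to Kitl (r = 0.995), which encodes the ligand of the KIT receptor of germ cells, Gata4 to Akr1cl (r = 0.993), Nr5a1 to Mex3c (r = 0.990), Zfpm2 to Phldb2 (r = 0.981) and Nr0b1 to Hs6st1 (r = 0.964). Lhx9 and Emx2 were each among the other's 3 closest genes, with r = 0.986 over the 12 group means and r = 0.986 over the 18 supporting cell arrays. Over those arrays Lhx9 was closest to Actr6 (r = 0.990), Emx2 to Ptpn4 (r = 0.988), Dmrt1 to Sel1l3 (r = 0.950), Nr5a1 to Snd1 (r = 0.941) and Nr0b1 to Kctd14 (r = 0.935). The likeness of Cbx2 to Rps6kl1 over those arrays went from 0.970 on deposited values to 0.436 on aligned values, so for Cbx2 it moved with the row sets.

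Other genes known to act in gonad formation shared the low level in germ cells in part. Of 7 measured (Six4, Cited2, Osr1, Tcf21, Insr, Igf1r and Gata6), 5 were lower and 1 was higher in germ than in supporting cells, where 47.2% of all genes passed, with a median of -0.71 against 0.07 over all genes. Gata6, a relative of Gata4 that is also active in the gonad, differed by -2.52 and Cited2, a coactivator that works with WT1, by -1.92, while the homeobox gene Six4 was higher (1.87). Between XY and XX supporting cells Gata6 was lower in XY cells at 12.5 dpc (-1.14) and 13.5 dpc (-1.10), and at 11.5 dpc only Insr, the insulin receptor gene, passed (-0.95). At 13.5 dpc Igf1r, which encodes the receptor for insulin-like growth factors, was higher in XY cells (0.62).

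In the mouse, Sry is switched on through a kinase cascade together with several of the 9 genes. Of 7 genes of this step (Sry, Gadd45g, Map3k4, Map2k3, Map2k6, Mapk14 and Kdm3a), 2 were higher and 2 lower in XY than in XX supporting cells at 11.5 dpc, where 3.33% of all genes passed, with a median of 0.31 against -0.06 over all genes. Sry itself was higher in XY cells (3.67), as was the kinase gene Map2k6 (0.98). Sry lies on the Y chromosome, so its place among the 2 higher genes was set by karyotype and is no finding about the list. Gadd45g (-0.89), whose product activates that kinase cascade, and the histone demethylase gene Kdm3a (-1.22) were lower. Between 11.5 and 13.5 dpc Sry changed by -3.96 and Gadd45g by -1.67 in XY supporting cells, and Gadd45g by -2.48 in XX supporting cells. All these differences passed.

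Genes known as targets of NR5A1, GATA4 or WT1 were compared between the karyotypes in the same way. Of 11 measured (Sox9, Amh, Amhr2, Inha, Wnt4, Star, Scarb1, Cyp11a1, Cyp17a1, Fdx1 and Hsd3b1), 1, 5 and 8 were higher in XY than in XX supporting cells at the 3 stages in order, and 3, 1 and 1 were lower, where 3.33%, 13.4% and 12.2% of all genes passed. Their medians were -0.00, 0.40 and 1.17, against -0.06, 0.04 and -0.02 over all genes. Amh, the Sertoli hormone that removes the female ducts, differed by 0.19 (not passing), 4.0 and 3.92 at the 3 stages, and Sox9 by 3.23, 2.75 and 2.30. After 11.5 dpc the Sox9 difference cannot be told apart from the use of the Sox9 line for XY cells. Wnt4 was lower in XY cells throughout (-1.18, -1.20 and -1.12). The steroid enzyme gene Cyp17a1 was higher at 13.5 dpc (1.94), and Cyp11a1 was lower at 11.5 dpc (-0.97) and higher at 13.5 dpc (1.65), the stage at which steroidogenic markers were raised, as given above. In germ cells 9 of the 11 were lower than in supporting cells and none was higher, with a median of -0.72, where 47.2% of all genes passed.

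Cbx2 works inside PRC1. Of 9 other measured PRC1 genes (Ring1, Rnf2, Bmi1, Pcgf2, Phc1, Phc2, Phc3, Cbx7 and Cbx8), 5 were higher and 3 lower in germ than in supporting cells, where 47.2% of all genes passed, with a median of 0.21 against 0.07 over all genes. Phc1 (1.31), Bmi1 (0.97) and Cbx7 (0.96) were the highest and Phc3 (-1.43) and Cbx8 (-0.96) the lowest. None of these 9 passed between XY and XX supporting cells at 11.5, 12.5 or 13.5 dpc, where 3.33%, 13.4% and 12.2% of all genes did. With shares this low, the absence of calls among 9 genes says little about PRC1.

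Of 16 measured relatives of the 9 in the same protein families, 4 were higher and 3 lower in germ than in supporting cells, a share near the 47.2% of all genes that passed, with a median of 0.09 against 0.07 over all genes. Nr5a2, the paralog of Nr5a1, was higher in germ cells (2.71), where Nr5a1 was lower, and Lhx1, a relative of Lhx9, was higher (1.43), where Lhx9 was lower. Dmrta1 was lower (-1.86), as was Gata6. Between XY and XX supporting cells none of the 16 passed at 11.5 dpc, and Gata6 and Dmrta1 (-0.72) were lower in XY cells at 12.5 dpc. At 13.5 dpc Gata6 was lower and Nr0b2, the paralog of Nr0b1, higher (0.70). Of all genes 3.33%, 13.4% and 12.2% passed at these stages in order.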

How the data were processed

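Sorted germ and supporting cells were measured on 36 arrays in 12 groups. The deposited values are log2 expression, 1 per probe set. The authors made them with RMA (background correction, normalization between arrays and summary of probes), per the submitters' processing notes, with no version given in the sources used here. Array medians were 6.54 to 7.01 over the genes tested. The number of arrays limits the precision of every value. Scan dates and slides, which could serve as batches, were not used here.

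Of 35557 probe sets, 21789 carried 1 gene symbol in the platform annotation, 1621 several and 12147 were unnamed here. Identifiers of 21698 matched the reference gene table, and 0 symbols changed. For 999 genes with several probe sets the one with the highest mean was used, which left 19938 genes with no filter on dim ones.

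Each gene was fitted with limma 3.58.1 in R 4.3.3, with 12 group means on 35 arrays, 23 residual degrees of freedom, empirical Bayes moderation and 23 contrasts. The 2-sided p-values of a contrast were Benjamini-Hochberg adjusted across all genes, with a threshold of 0.05. The array left out, for its marker levels, is XX germ cells at 12.5 dpc, replicate 3, a choice made with earlier results known. SEs rest on the spread of all 35 arrays, and the fit was tested on simulated data.

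Row sets were found from the spacing of values within each array: 107 sets, slopes from 1.0099 to 1.059, with 6 values in no set and a median gap of 0.298 between set medians, above 0.5 in 12 arrays. No label says what made them. Aligning scaled each set by its slope and shifted all sets to a common median.

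The 9 genes, the related lists (gonad formation, Sry activation, targets, PRC1 and relatives), the markers and the comparisons were chosen with earlier results of these data known. The genes named are the 9, members of those lists, and the 3 genes most correlated with each. Some members of these lists are not reported here. Alternatives tried were 36 arrays, centring, quantile normalization, aligned row sets, only the arrays compared, a filter on dim genes (a group mean of at least 7), a replicate block and the lowest probe set. Each array of the groups compared was also left out in turn. No 2 arrays held identical values, and correlations within groups were 0.967 to 0.995. Tables and plots used Python 3.11.15, pandas 2.3.3, numpy 2.4.6 and matplotlib 3.10.9.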

Additional observations from a re-analysis of the deposited data

Results flagged for a closer look

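The XY minus XX difference of supporting cells changed between 11.5 and 13.5 dpc for 3 of the 9 genes in limma's test of that change. It moved by 1.56 for Dmrt1, by -1.61 for Emx2 and by -2.02 for Lhx9 on the log2 scale. At 13.5 dpc the XY cells came from another reporter line and strain than the XX cells, and at 11.5 dpc from the same, so the change cannot be told apart from the change of line.

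The array left out, labelled as XX germ cells at 12.5 dpc, replicate 3, lay outside the other 17 germ cell arrays for all 9 genes on deposited values. On aligned values Cbx2, at 9.08, lay inside their range of 8.88 to 9.23. It stood at 11.18 for Wt1, 9.79 for Gata4, 11.11 for Lhx9, 8.84 for Nr5a1, 9.27 for Nr0b1, 8.29 for Emx2, 9.82 for Cbx2 and 8.53 for Zfpm2. The highest of the other germ cell arrays stood at 8.18 for Wt1, 7.82 for Gata4, 8.04 for Lhx9, 7.75 for Nr5a1, 7.88 for Nr0b1, 5.96 for Emx2, 9.80 for Cbx2 and 6.71 for Zfpm2. For Dmrt1 it stood at 7.21, below the lowest of the others at 7.77. On this array the median of the germ cell markers was 5.90, that of the pregranulosa markers 9.77 and that of the stromal markers 10.53. Medians of endothelial (7.66) and coelomic epithelium markers (7.50) were, like the stromal one, above those of all other arrays, at most 6.61, 6.72 and 7.51. Its Sertoli, steroidogenic, blood and mesonephric medians lay within the range of the other arrays.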

How the results depend on the processing

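Of 207 values, 9 genes in 23 comparisons, 80 passed the test and 99 passed under none of the alternatives. Of the 80, 68 passed without each single array of the groups compared and 12 did not. Arrays of groups outside a comparison were not left out singly. The labels give no pairing by replicate number, and these values do not settle it. Deviations of same-numbered arrays correlated at -0.524 to 0.540 (median -0.00609), against a median of 0.00253 for different numbers. Of 35 arrays, 16 correlated best with their own number, and the number expected without pairing was not worked out. With the replicate block the counts of genes passing stayed at 9 for germ minus supporting cells, and 4 and 4 for XY minus XX supporting cells at 12.5 and 13.5 dpc, and it changed no call. The filter on dim genes and the lowest probe set also changed none. Each of the 9 genes had a single probe set and a group mean over 7, so their own values were the same in both settings. These settings therefore say little about the calls.

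Counts of the 9 genes that moved by over 1.5 times were as follows; the cause was not tested. With all 36 arrays they were 0 for XY minus XX supporting cells at 11.5 dpc, 3 for XY minus XX germ cells at 12.5 dpc, 2 for XX supporting cells between 13.5 and 11.5 dpc, 0 for XX germ cells between these stages, 0 for XX supporting cells between 12.5 and 11.5 dpc, 0 for XY supporting cells between 13.5 and 12.5 dpc and 1 for the change of XY minus XX in supporting cells. There Lhx9 and Emx2 at 11.5 dpc had adjusted p of 0.112 and 0.252. With centred arrays and with quantile normalization they were 1 for XY minus XX germ cells at 12.5 dpc, 2 for XY germ cells between 13.5 and 11.5 dpc, 2 for XX supporting cells between 12.5 and 11.5 dpc and 0 for XY supporting cells between 13.5 and 12.5 dpc, and quantile normalization gave 7 for XY supporting cells between 13.5 and 11.5 dpc. With aligned row sets they were 7 for that comparison and 2 each for XX germ cells and XY germ cells between 13.5 and 11.5 dpc and for XX supporting cells between 12.5 and 11.5 dpc. With only the arrays compared they were 1 for XY minus XX germ cells at 12.5 dpc, 6 for XY supporting cells between 13.5 and 11.5 dpc, 0 and 1 for XX supporting cells between 12.5 and 11.5 and between 13.5 and 12.5 dpc, and 2 for XY supporting cells between 13.5 and 12.5 dpc.

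Without single arrays the counts ran from 1 to 2 for XY minus XX supporting cells at 11.5 dpc, 0 to 1 for XY minus XX germ cells at 12.5 dpc, 0 to 1 for XX germ cells and 1 to 2 for XY germ cells between 13.5 and 11.5 dpc, 0 to 2 for XX supporting cells between 12.5 and 11.5 dpc, 0 to 1 for XY supporting cells between 13.5 and 12.5 dpc and 0 to 1 for the change of XY minus XX in germ cells. The sign turned for Dmrt1 in XY germ minus supporting cells at 12.5 dpc, to 0.0047 with centred arrays and between -0.11 and 0.024 without single arrays (0.024 without XY supporting replicate 3). The spread within groups was a median of 0.205 on deposited and 0.103 on aligned values, which limits what small differences can show.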
